A study of Drosophila melanogaster with 8 samples.

Results

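Cytosolic ribosomal proteins build the large and the small subunit of the ribosome that translates nuclear messages, and they are compared here between larvae and adults of Drosophila melanogaster. The members are all genes whose symbol in the array's probe-to-gene table is RpL or RpS followed by a number, RpLP followed by a number, or RpSA, counting spots paired with 1 gene alone. This gave 34 of the 10658 genes on the array, 20 of the large and 14 of the small subunit, on 40 spots. The current RefSeq gene table of the fly lists 92 symbols of this form, and those outside the 34 were not analysed here. All 34 symbols were still current in that table, and no filter on low values was applied, so every member was measured on all 8 arrays.

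A ribosome holds a single copy of most of its proteins, so their genes are expressed at high and closely matched levels in growing cells, and loss of a single gene copy gives the Minute phenotype of slow growth and thin bristles in the fly. Several of the genes have a second copy in the fly genome, and some of these copies are used mainly in testis or ovary. RpL40, RpS27A and RpS30 are unusual because they are translated as fusions, the first pair with ubiquitin at the front and RpS30 with a ubiquitin-like protein.

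Larvae and adults alike were Canton S, a wild-type fly strain, each taken as a mix of stages, with no age or sex in the labels. Polyadenylated RNA was selected with oligo-dT cellulose before labelling. Per the labels, portions of 1 master homogenate in TRIzol, a phenol reagent for RNA extraction, were processed separately, so the 8 arrays are technical replicates and the p-values measure technical spread alone. Larvae were in channel 1 on replicates 1, 3, 6 and 8, and adults were in channel 1 on replicates 2, 4, 5 and 7. The labels give the assessment of technical error as the purpose. Whole animals were used, so more cells that use a gene and more of its RNA per cell cannot be told apart.

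Each value below is a turned log2 ratio: the deposited log2 ratio of the 2 channels, centred on the array's median over spots with 1 gene, with its sign reversed where adults were in channel 1. The sources used here do not say which channel is the numerator, so results have a positive and a negative side and neither is assigned to larvae or adults. After turning, arrays of one orientation correlated over all spots with Pearson's r from 0.39 to 0.89 and arrays of opposite orientation with r from 0.51 to 0.81. Of the 15 larval and adult marker genes listed for this check, 7 were measured and 6 passed the test: Yp1, Yp2, chp and Act88F, known from adults, were on the positive side and Sgs1 and Sgs5, glue genes of late larvae, on the negative side. Yp3, also listed as an adult marker, did not pass, at 0.02 (limma adjusted p = 0.807). Errors are SDs over 8 arrays.

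Few ribosomal protein genes differed between the larval and adult RNA by more than the spread between arrays. In the limma fit of all genes, with Benjamini-Hochberg adjustment and a threshold of 0.05, 5 of the 34 members passed, which is 14.7%, whereas 57% of all genes passed. The positive side held 4 members, against 29.2% of all genes, and the negative side held 1, against 27.8%. The mean ratio was above 0 in 26 members and below 0 in 8, and the median over members was 0.28, against -0.01 over all genes. As deposited, without centring, 2 members were positive (9.76% of all genes) and 9 negative (56.8%), and the median over members was -0.16 and over all genes -0.45. By construction, centring moved the mean ratio of every gene by the same amount. The members' median therefore lay above that of all genes by the same gap on both scales, while its own sign turned. Without replicate 1, 9 members were positive (28.9% of all genes) and 1 negative (27.6%), and without replicate 4 the counts were again 9 (27.6%) and 1 (25.9%). Without replicate 7 the median was 0.10, and 6 members were positive (30.1% of all genes) and 4 negative (28.8%). Those 10 included the 5 above, with RpL22-like and RpS5b added on the positive side and RpLP0, RpLP0-like and RpS20 on the negative side, at ratios between -0.37 and 0.27. With a loess curve against brightness removed, the median was 0.03. Then 4 members were positive (30.7% of all genes) and 8 negative (30.2% of all genes).

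**Figure D1:**
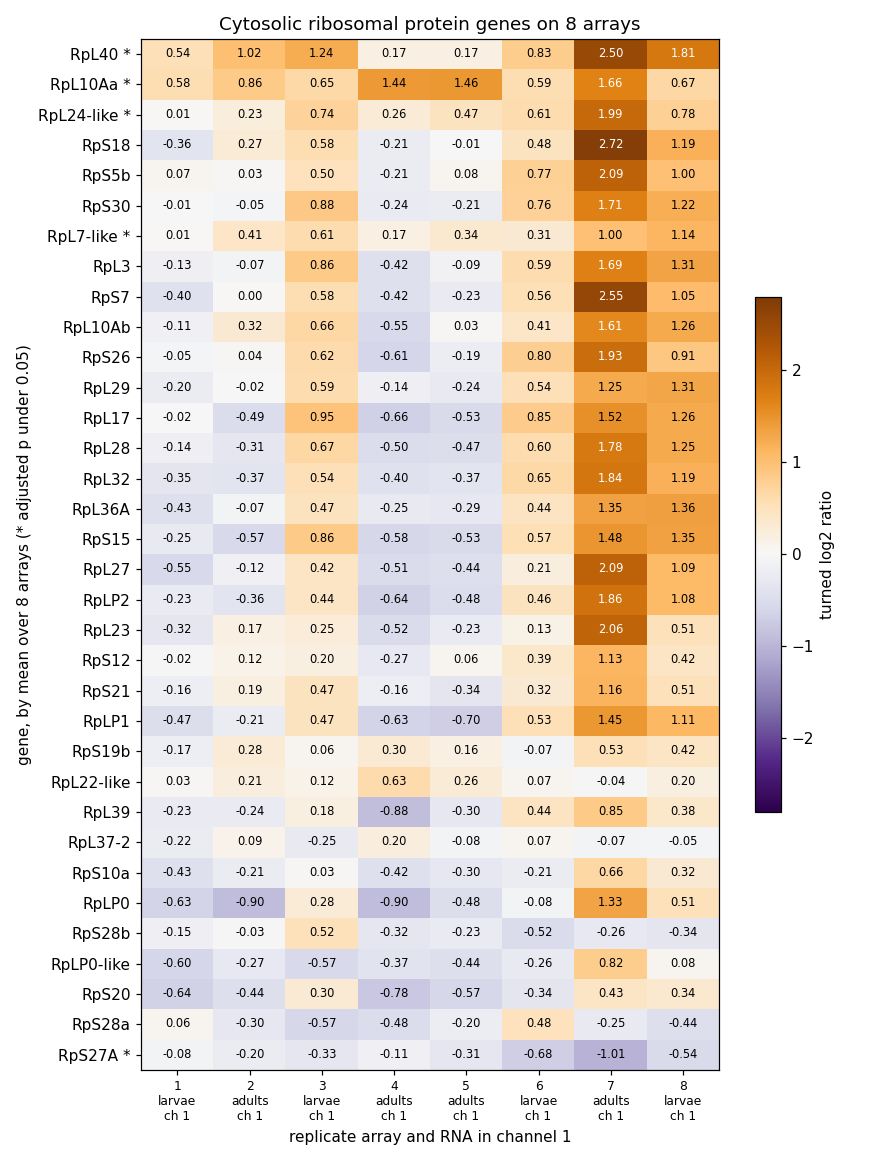
Turned log2 ratio of each of the 34 ribosomal protein genes (rows, ordered by their mean) on each of the 8 arrays (columns, with the RNA that was in channel 1), printed in each cell and coloured from purple (negative) to orange (positive); an asterisk marks the 5 genes with a limma adjusted p under 0.05. On replicate 7 the highest member reaches 2.72, and 26 of the 34 genes have their highest value there, while RpS27A has its lowest.

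RpL40, the large subunit protein made as a ubiquitin fusion, had the highest mean ratio of all members. Its values over the 8 arrays had a lowest of 0.17, a median of 0.92 and a highest of 2.50, all on the positive side. Replicates 4 and 5 were low and replicates 7 and 8 high. The mean was 1.04 ± 0.81 with a limma adjusted p of 0.00321. The 4 arrays with larvae in channel 1 averaged 1.10 and the other 4 averaged 0.97. RpL40 was also the brightest member, and after the loess curve against brightness its ratio was -0.01 with a limma adjusted p of 0.974, and the call ended under that setting.

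RpS27A, the other ubiquitin fusion, was the member on the opposite side. It ranged from -1.01 to -0.08 with a median of -0.32, and all 8 arrays were negative. The mean was -0.41 ± 0.32 (limma adjusted p = 0.00977), and both orientations gave the same average, -0.41. RpS27A had its lowest value on replicate 7, where most members had their highest. RpS30, whose fusion partner is ubiquitin-like, stood at 0.51 ± 0.74 and did not pass (limma adjusted p = 0.0554). Ubi-p63E, a polyubiquitin gene that is not a ribosomal protein and was chosen after its value was seen, ran from 1.82 to 3.48 with a mean of 2.46 ± 0.63 (limma adjusted p = 1.35e-06).

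RpL10Aa, a second copy of the gene for a protein of the L1 stalk, had positive values on all 8 arrays, from 0.58 to 1.66 with a median of 0.77. Its mean of 0.99 ± 0.45 carried the smallest limma adjusted p among the members, 7.96e-06. The values fell by orientation without overlap: the 4 arrays with larvae in channel 1 averaged 0.62, and the 4 with adults in channel 1 averaged 1.36. The dye term of the same fit did not pass for this gene (limma adjusted p = 0.913), as it did for 0 of 10658 genes. Before adjustment RpL10Aa was the 1 member with a limma p under 0.05 for that term. The part of the dyes in this split was not tested further.

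RpL24-like, related to a ribosome assembly factor of yeast, and RpL7-like, named for its likeness to the large subunit protein RpL7, completed the positive side. RpL24-like ran from 0.01 to 1.99 with a median of 0.54, and its mean was 0.64 ± 0.61 (limma adjusted p = 0.0108). Its highest value, on replicate 7, stood well above the other 7 arrays. RpL7-like ran from 0.01 to 1.14 with a median of 0.37, and its mean was 0.50 ± 0.39 (limma adjusted p = 0.00721). Both were positive on all 8 arrays. As deposited, neither passed, at 0.20 (limma adjusted p = 0.255) and 0.06 (0.684), and RpL7-like also did not pass after the loess curve, at 0.15 (0.0985). Of the 34 members, 4 were positive and 1 negative on all 8 arrays, the same 5 that passed the test, whereas 41.7% of all genes kept one sign on all 8.

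The other 29 members did not pass, and each had values on both sides of 0. RpS18, a protein of the small subunit head, had the highest mean of its subunit: it ran from -0.36 to 2.72 with a median of 0.37, and its mean was 0.58 ± 1.00 (limma adjusted p = 0.0992). The 2.72 was from replicate 7 and the next value was 1.19, from replicate 8. RpS5b, a small subunit gene known from the germ line, stood at 0.54 ± 0.75 (limma adjusted p = 0.0537), and RpL3, a protein close to the peptidyl transferase centre, at 0.47 ± 0.77 (0.0862). RpL32, widely used as a reference gene in fly expression work under its older name rp49, ran from -0.40 to 1.84 with a mean of 0.34 ± 0.86 (limma adjusted p = 0.246). Replicates 1, 2, 4 and 5 placed RpL32 on the negative side and replicates 3, 6, 7 and 8 on the positive side.

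The large and the small subunit had close medians. The median over the 20 large subunit genes was 0.33 and over the 14 small subunit genes 0.25. On single arrays, the large subunit median minus the small subunit median ran from -0.12 to 0.63 with a mean of 0.10 ± 0.27, positive on 4 arrays and negative on 4. The 2 largest differences, 0.63 and 0.42, were on replicates 8 and 7. Without replicate 7 the difference of the fitted medians was -0.0048. No test was made of these medians, since the members were chosen with earlier results of these data known.

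The stalk of the large subunit, which recruits elongation factors, is formed by RpLP0, RpLP1 and RpLP2. RpLP1 stood at 0.19 ± 0.82 and RpLP2 at 0.27 ± 0.87, and neither passed (limma adjusted p = 0.491 and 0.372). RpLP0, which anchors the other stalk proteins, ran from -0.90 to 1.33 with a median of -0.28 and a mean of -0.11 ± 0.78 (limma adjusted p = 0.697). RpLP0 was lower than both RpLP1 and RpLP2 on every array except replicate 5. RpL17 and RpL39, which line the exit tunnel, stood at 0.36 ± 0.88 and 0.03 ± 0.54.

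On the centred values, most ribosomal protein genes moved together from array to array. The median over the members was -0.16, -0.04, 0.49, -0.39, -0.23, 0.45, 1.46 and 0.96 on replicates 1 to 8. The median over all genes on the same arrays lay between -0.01 and 0.01, which the centring sets. As deposited, before turning, the median over all spots was -0.69, 0.51 and -0.70 on replicates 3, 7 and 8. On the other arrays it lay between -0.26 and 0.13. The signs of the members' medians and the counts above 0 therefore depend on the centring. Its part in the movement that the members share was not tested. The number of members above 0 was 7 of 34 on replicates 1 and 4, 9 on replicate 5 and 15 on replicate 2, against 27 to 30 on replicates 3, 6, 7 and 8. Of the 4 arrays with a median above 0, 3 had larvae in channel 1 and 1 had adults there. The orientations overlapped: the members' median ranged from -0.16 to 0.96 over the arrays with larvae in channel 1 and from -0.39 to 1.46 over those with adults in channel 1. Replicate 7 held the highest value of 26 members, and of 28.3% of all genes. Replicate 4 held the lowest value of 17 members.

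The likeness of each gene to the rest was described by Pearson's r between its 8 values and the median of the other 33 members on the same arrays. It exceeded 0.9 in 24 members, which included 21 of the 22 genes not named as duplicates and 3 of the 12 that are. Names ending in a, b, -2 or -like were taken as duplicates, a rule set after seeing the data. Genes so named also had a lower median brightness, at percentile 66.2 of all genes against 95.8 for the others. RpLP2 (r = 0.99), RpL28, RpL32, RpL3 and RpS30 followed the rest most closely. RpS27A, the exception among the genes not named as duplicates, ran opposite to the rest (r = -0.89). Besides it, r was below 0 for RpL22-like (-0.60), RpL37-2 (-0.25), RpS28a (-0.07) and RpS28b (-0.06), and it was 0.05 for RpL10Aa and 0.52 for RpS19b. These values rest on 8 arrays shared by all genes, were taken on centred ratios only, and are given as a description.

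**Figure D2:**
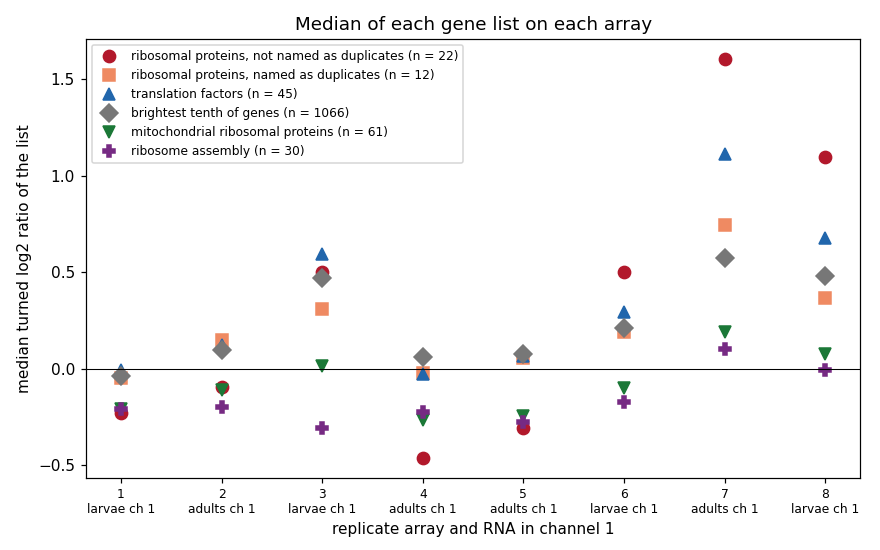
Median turned log2 ratio of 6 gene lists (marker shape and colour, with the number of genes in the key) on each of the 8 arrays, with the RNA in channel 1 written under each replicate. The 22 ribosomal protein genes not named as duplicates go from -0.46 on replicate 4 to 1.61 on replicate 7, the widest range of the lists drawn, while mitochondrial ribosomal proteins stay between -0.26 and 0.19.

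Ribosomal protein genes varied more between arrays than most genes. The residual SD of the limma fit, the spread left between arrays after the stage and dye terms, had a median of 0.76 over members, against 0.30 over all genes and 0.41 over the 1066 brightest genes. Translation factor genes came closer to the members, with a median of 0.48 and 13 of 45 above the 95th percentile of all genes, and so did the eIF3 genes among them, with 0.59 and 6 of 16. The residual SD was above the gene median in 30 of the 34 members, and 19 members exceeded that 95th percentile, which was 0.66. RpS7 and RpS18 had the largest residual SDs, 1.08 and 1.07, both at percentile 99.9 of all genes. When the members' median was subtracted on each array, the median SD of a member over arrays went from 0.71 to 0.29, and with their own list's median subtracted that of the eIF3 genes went from 0.57 to 0.26. Without replicate 7, the median residual SD of the members was 0.39 and that of all genes 0.24. As deposited, without centring, it was 0.51 for the members and 0.45 for all genes.

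Brightness and spread moved together only in part. The members' median brightness was at percentile 87.4 of all genes, and 15 of the 34 were above the 90th percentile. RpL17, RpS30 and RpS5b, at brightness percentiles 37.2, 38.2 and 29.7, had residual SDs of 0.83, 0.76 and 0.81, all above the 95th percentile. RpS28b and RpL7-like, at brightness percentiles 91.8 and 97.9, had residual SDs of 0.33 and 0.42. The part of brightness in the spread was not tested beyond the loess setting, under which the members' median residual SD was 0.40 and that of all genes 0.27.

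**Figure D3:**
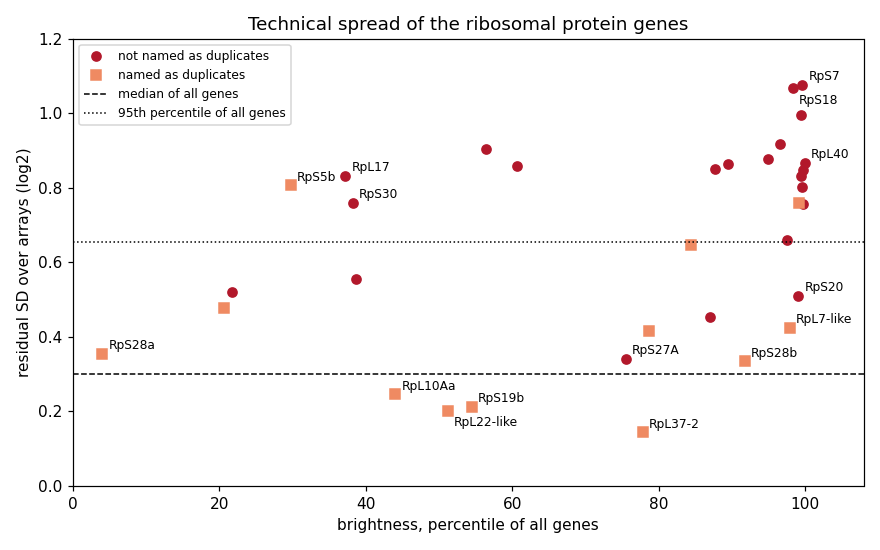
Residual SD over arrays (log2, vertical axis) of each ribosomal protein gene against its brightness as a percentile of all genes (horizontal axis), with genes not named as duplicates as circles and those named as duplicates as squares; the dashed and dotted lines are the median (0.30) and the 95th percentile (0.66) of all genes. Of the circles, 17 of 22 lie above the dotted line, and of the squares 2 of 12. The median brightness percentile is 95.8 for the circles and 66.2 for the squares.

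Genes named as duplicates differed among themselves. RpL37-2, the second RpL37 gene, hardly moved, from -0.25 to 0.20 with a mean of -0.04 ± 0.15 and a residual SD of 0.14. RpL22-like, a copy known for its use in the male germ line, stood at 0.19 ± 0.21, and RpS19b, known from the female germ line, at 0.19 ± 0.24. Both had a limma adjusted p of 0.0926. Replicate 7 was the lowest array for RpL22-like, at -0.04, and replicate 4 the highest, at 0.63. Over the 12 genes named as duplicates the median residual SD was 0.39, and over the other 22 members it was 0.84. Their median brightness also differed, at percentile 66.2 of all genes for the 12 and 95.8 for the 22. The part of brightness in this contrast was not tested. The 12 were taken by name and include RpL10Ab, the main copy of its pair, so they are not all second copies. Of the 12, 3 passed, each with a positive ratio, and of the 22, 1 passed with a positive and 1 with a negative ratio, beside 29.2% and 27.8% of all genes.

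Both genes of a pair were measured for 3 pairs, and their difference was tested on each by an exact two-sided sign-flip permutation test over the 8 arrays, adjusted over the 3 pairs; the smallest p this design allows is 0.00781. RpL10Ab, the main copy beside RpL10Aa, ran from -0.55 to 1.61 with a median of 0.37 and a mean of 0.45 ± 0.71. RpL10Aa minus RpL10Ab was 0.54 ± 0.83, from -0.59 to 2.00, and higher on 6 of 8 arrays, which did not pass (exact permutation p = 0.102, adjusted 0.305). RpLP0-like, related to a ribosome assembly factor of yeast, ran from -0.60 to 0.82 with a median of -0.32 and a mean of -0.20 ± 0.46, and RpLP0 minus RpLP0-like was 0.09 ± 0.51, from -0.63 to 0.84 (exact permutation p = 0.641, adjusted 0.695).

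RpS28a and RpS28b, copies of the gene for a protein near the messenger RNA exit site, had like means over the arrays but differed on single arrays. RpS28a ran from -0.57 to 0.48 with a median of -0.28, and RpS28b from -0.52 to 0.52 with a median of -0.25. RpS28a minus RpS28b was -0.04 ± 0.58, from -1.09 to 1.00 (exact permutation p = 0.695, adjusted 0.695). RpS28a was dim, at brightness percentile 3.99, and RpS28b bright, at 91.8. Thus 0 of 3 pairs passed, and 0 at an unadjusted p of 0.05. After the loess curve against brightness 2 pairs passed, with RpL10Aa above RpL10Ab by 1.10 ± 0.54 on 8 of 8 arrays (exact permutation p = 0.00781, adjusted 0.0234) and RpLP0 below RpLP0-like at -0.47 ± 0.36 on 7 of 8 (exact permutation p = 0.0156, adjusted 0.0234). The sources used here do not say if the probes separate near-identical copies, which leaves the value of each single copy uncertain.

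A subtraction of the other members removes what they share on an array and does not depend on how arrays are centred. Against the median of the other 33 members, RpL40 was higher on all 8 arrays, by 0.73 ± 0.27, and RpS5b on all 8, by 0.24 ± 0.20. The genes below the others on all 8 arrays were RpS20 (-0.54 ± 0.28), RpLP0 (-0.44 ± 0.23), RpS10a (-0.40 ± 0.30) and RpL39 (-0.31 ± 0.25). The RpS10a value averages 2 spots that disagree, with mean ratios of 0.17 for the bright spot and -0.31 for the other. Its bright spot alone was at 0.50 on replicate 3, where the median over members was 0.49. RpS20 itself ran from -0.78 to 0.43 with a mean of -0.21 ± 0.49 (limma adjusted p = 0.242). RpS30 lay 0.20 ± 0.15 above the others, the smallest SD of any member. RpS27A, RpL22-like and RpL10Aa had SDs of 0.96, 0.80 and 0.78 on this measure. These offsets are a description, with no test, and brightness was not removed from them. After the loess curve against brightness RpL40 stood at -0.01, beside a median of 0.03 over the members. RpS5b was then at 0.55, RpS20 at -0.71, RpLP0 at -0.67, RpS10a at -0.11 and RpL39 at 0.06.

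**Figure D4:**
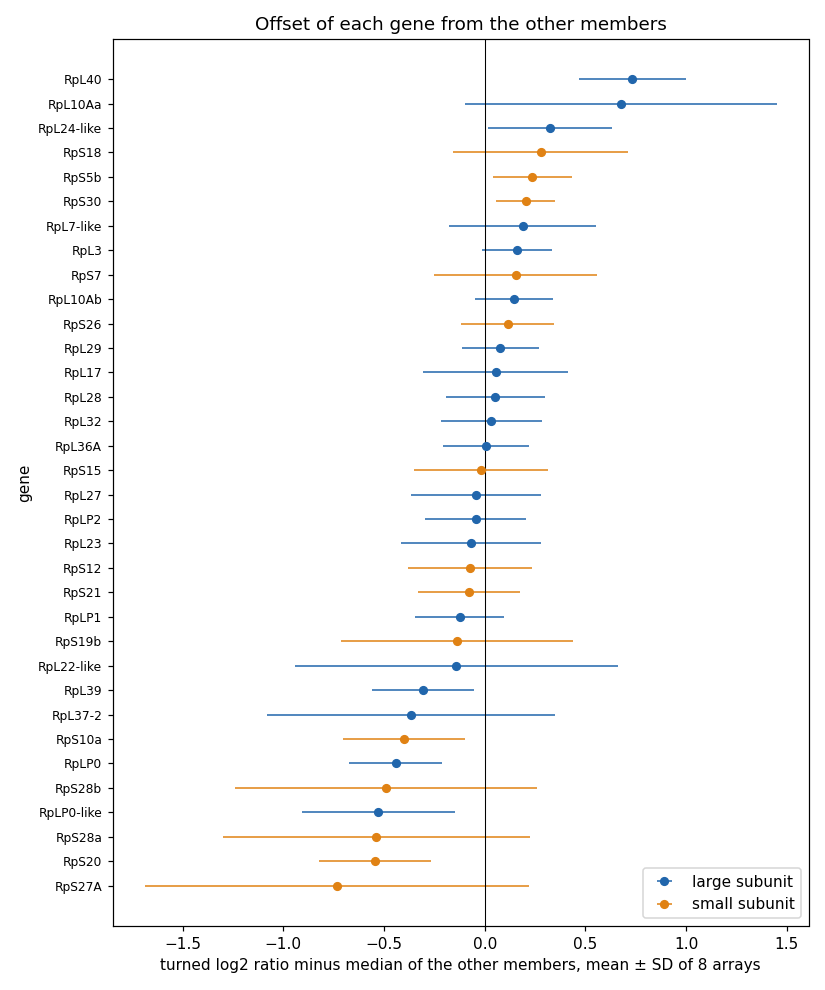
Turned log2 ratio of each ribosomal protein gene minus the median of the other 33 members on the same array, as the mean (point) and SD (bar) of 8 arrays, in blue for the large and orange for the small subunit; genes are ordered by the mean. RpL40 lies 0.73 above and RpS20 0.54 below the others with short bars, while RpS27A, RpL22-like and RpL10Aa have the longest bars. No loess curve against brightness was removed from these values.

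Separate spots of 1 gene gave the same pattern in 3 genes and different ones in 2. The 3 spots of RpL3 had means of 0.39, 0.52 and 0.49 and correlated with r of at least 0.97 with the brightest of them over the 8 arrays. In the limma fit of spots the one at 0.52 passed (adjusted p = 0.0398), beside 56.4% of all spots with 1 gene. Those at 0.39 and 0.49 did not (limma adjusted p = 0.182 and 0.0676). The 2 spots of RpL28 had means of 0.35 and 0.37 (r = 0.98) and those of RpLP2 0.31 and 0.22 (r = 1.00). RpS12 and RpS10a were different. The bright RpS12 spot ran from -0.34 to 1.99 with a mean of 0.48 ± 0.83, and the dim one, at brightness percentile 17.3, from -0.50 to 0.29 with a mean of 0.02 ± 0.30.

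RpS10a, a copy of RpS10, had a bright spot that ran from -0.48 to 1.43 with a mean of 0.17 ± 0.69 and a second spot that was negative on all 8 arrays, from -0.66 to -0.03 with a mean of -0.31 ± 0.21. In the limma fit of spots the second spot passed (adjusted p = 0.0125) and the bright one did not (0.492), beside 56.4% of all spots with 1 gene. The gene means of RpS12, 0.25 ± 0.42, and of RpS10a, -0.07 ± 0.39, therefore average spots that disagree. With the brightest spot alone they were 0.48 and 0.17, and neither passed (limma adjusted p = 0.105 and 0.493).

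**Figure D5:**
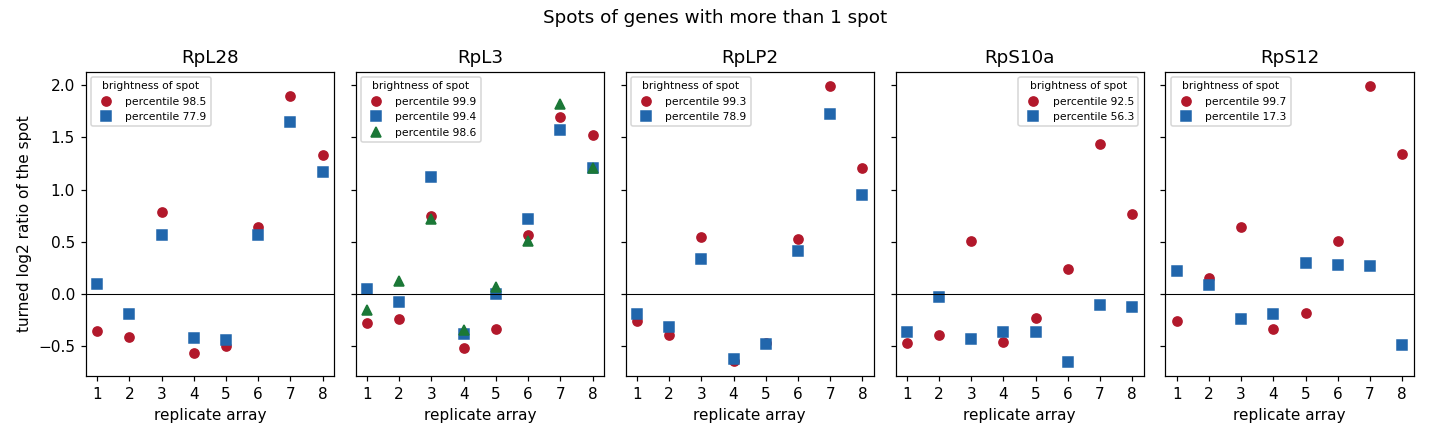
Turned log2 ratio of each spot (vertical axis) on the 8 replicate arrays (horizontal axis) for the 5 ribosomal protein genes with more than 1 spot; colour and shape tell spots apart, and the key gives each spot's brightness percentile among spots with 1 gene. The spots of RpL28, RpL3 and RpLP2 rise and fall together over the arrays, though those of RpL28 are at -0.36 and 0.09 on replicate 1. On replicate 7 the spots of RpS12 are at 1.99 and 0.27 and those of RpS10a at 1.43 and -0.11.

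The rest of the translation machinery was read from lists written with earlier results of these data known. Of 45 translation factor genes, 21 passed with a positive ratio, 2 passed with a negative ratio and 22 did not pass. The share that passed, 51.1%, was near the 57% of all genes, of which 29.2% were positive and 27.8% negative. Their median was 0.33, and their median on single arrays went from -0.03 to 1.11, highest on replicate 7. Among the initiation factors eIF4G2, a scaffold protein known from the male germ line, stood at 1.48 ± 0.49 (limma adjusted p = 6.20e-06), eIF5 at 1.10 ± 0.80 and eIF4A, the RNA helicase of initiation, at 1.03 ± 0.57 (limma adjusted p = 0.000704 and 0.000319). Among these 45, 16 were eIF3 genes, which encode a complex bound to the small subunit during initiation. Their median was 0.56, and 10 of them passed (62.5%), each with a positive ratio; eIF3f1 was at 0.78 ± 0.65 and eIF3m at 0.69 ± 0.67.

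Some elongation factors passed and others did not. The elongation factor gene eEF1alpha2 stood at 0.80 ± 0.70 and eEF5 at 0.75 ± 0.82 (limma adjusted p = 0.00651 and 0.0187), while eEF1gamma, at 0.10 ± 0.96, and eEF1delta, at -0.08 ± 0.68, did not pass (0.758 and 0.747). The termination factor eRF1 was at 0.96 ± 0.67 (limma adjusted p = 0.00162). The 2 factors on the negative side were eIF2Balpha, of the guanine nucleotide exchange factor of initiation, at -0.60 ± 0.23 and eEFSec, the selenocysteine factor, at -0.32 ± 0.37 (limma adjusted p = 0.000305 and 0.0432).

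Ribosome assembly genes passed about as often as all genes, 60.0% against 57%. Of 30 measured genes of that list, 13 were negative and 5 positive at the threshold, beside 27.8% and 29.2% of all genes. The list was written by symbol, so some of its genes, such as pes on the negative side, may not act in ribosome assembly in the fly. The list's median was -0.19, and its medians on single arrays ran from -0.31 to 0.10. Surf6 stood at -0.57 ± 0.17, ppan at -0.47 ± 0.24, the methyltransferase gene Fib (fibrillarin) at -0.50 ± 0.41 and Nop60B, the pseudouridine synthase, at -0.64 ± 0.54. The positive members were Non1, Ns2, Rrp6, Tif-IA and Rrp1, and the last of these is known as a DNA repair gene in the fly despite its place in the list. Mitochondrial ribosomal proteins, built into a separate ribosome, had 3 positive and 13 negative genes of 61, or 26.2% called, against 57% of all genes. Their median residual SD was 0.26, and their list median stayed between -0.26 and 0.19 over the arrays. No test of the difference between these lists was made.

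No ribosomal protein gene passed the threshold for the dye term. In the limma fit 0 of 34 members and 0 of 10658 genes passed for the dye term, and at an unadjusted p of 0.05 it was 1 member, RpL10Aa, and 481 genes. With arrays weighted by their quality, 12 members and 11% of all genes passed for that term.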

How the data were processed

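Larval and adult RNA of Canton S flies was compared on 8 two-colour spotted arrays. The scanner was an Axon 4000 series model run by GenePix, and spots were quantified with Spot 2.0, per the labels. The deposited values are log2 ratios of the 2 channels: all 20000 spots of every array can be written as log2 of one whole number over another within a relative tolerance of 1e-13. The sources used here do not give the dyes, the numerator, the background handling or any spot filter. No signal or background was used, and the number of arrays limits precision.

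Here arrays were centred on the median of the 12246 spots with 1 gene and turned. Spots of a gene were averaged, and limma 3.58.1 (R 4.3.3) was run on 10658 genes (stage and dye columns, 6 residual degrees of freedom). Spots with several genes (86) and unnamed ones (7668) stayed out; 1 of the 86 names a ribosomal protein. Symbols came from the platform's annotation, and 11771 spots matched the RefSeq table of Release 6. Brightness averages the log2 of both whole numbers recovered per spot, and it is a minimum, as a ratio hides common factors. Every member may be named; those past the threshold, in pairs or extreme in their subunit have their array values given. Members and lists were chosen with earlier results of these data known. The fit was tested on simulated data of the larval and adult comparison: of 200 changed genes among 10658, 67% of those shifted by 0.5 (log2) and 98% of those shifted by 1 were recovered. The simulated noise was independent between genes and had each gene's residual SD, with a median of 0.30 over all genes. For the members that median was 0.76 and most moved together, so these shares do not apply to them. Settings tried were values as deposited, centring on all spots or on genes, scaling, quantile normalization, a loess curve against brightness (span 0.3), no dye column, array weights, the brightest spot, and leaving out each replicate. Pairs of copies were formed by symbol. No sequence and no promoter letters are shown, since the reference given here holds none. Tables were made with pandas 2.3.3 and numpy 2.4.6 in Python 3.11.15, figures with matplotlib 3.10.9.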

Additional observations from a re-analysis of the deposited data

Results flagged for a closer look

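In 39 sets of 8 array values (34 genes, 2 summaries of the members and 3 pair differences), 4 had 1 array whose gap to its neighbour was large against the whole range by Dixon's criterion at the 95% level. Chance gives about 1 in 20 sets, and sets of one array series are not independent. RpL23 stood at 2.06 on replicate 7, where the next highest array was at 0.51. RpL24-like stood at 1.99 on replicate 7, where the next was at 0.78. RpL22-like stood at 0.63 on replicate 4, with the next at 0.26, and RpS28b stood at 0.52 on replicate 3, with the next at -0.03 and the other arrays negative. No explanation of these values was tested.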

How the results depend on the processing

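No paired analysis was possible because the 2 orientations share no replicate numbers, so no block of replicate number could be fitted; each array already sets larvae against adults. The positive count of 4 members was 2 as deposited, 9 with array weights (34.3% of all genes), and 4 to 9 with a replicate left out, reaching 9 without replicate 1 or 4. For the negative side, the count of 1 became 9 as deposited (56.8% of all genes), 8 after the loess curve (30.2%) and 4 with array weights (34.5%). It was 3 with all spots used for centring, where the median over all genes was -0.15. With a replicate left out it was 1 to 4: 4 without replicate 7 (28.8%) and 2 without replicate 3 or 6. Beside the main fit, shares of all genes were taken only for values as deposited, the loess curve, array weights and leaving out replicate 1, 4 or 7. The dye count of 0 was 12 with array weights, and the count of differing pairs, 0, was 2 after the loess curve. The median residual SD of 0.76 was 0.40 after the loess curve and 0.39 to 0.83 with a replicate left out, lowest without replicate 7. Signs turned together with a call in 5 genes. RpL39 was at -0.41 as deposited, and after the loess curve RpL3 was at -0.20, RpL36A at -0.48, RpLP1 at -0.56 and RpL40 at -0.0053. Of the 5 called members, RpL10Aa and RpS27A kept their call in all 17 settings run. The cause of these shifts was not tested. Scaling, quantile normalization, the brightest spot and centring on genes kept the counts within 1.5 times.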
